A study of Mus musculus with 42 samples.

Results

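The integrated stress response was followed through 10 of its transcripts in mouse macrophages derived in culture from bone marrow cells (BMDM). The genes were named by symbol: Atf4, Atf5, Ddit3, Atf3, Trib3, Asns, Chac1, Sesn2, Ddit4 and Gdf15. They are 10 of the 37310 gene identifiers of the count table, and all 10 were among the 11624 genes with enough counts to be tested. Under LPS at 2 h, 5 of the 10 passed the test in libraries labelled WT and 8 in those labelled KO. At 24 h 8 passed in each. Of all genes tested, 23.1% and 23.9% passed at 2 h, and 39.5% and 40.9% at 24 h. Several of the 10 moved in opposite directions at the early and the late time. At 2 h of LPS Gdf15 rose while Ddit3 and Sesn2 fell, and at 24 h Ddit3 and Sesn2 rose together with Atf4, Atf5, Trib3 and Asns while Gdf15 fell. Atf4 was higher and Atf3 lower at both times. None of the 10 passed under palmitate, where 0.112% to 0.877% of all genes passed within a label.

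The 42 libraries formed 14 groups of 3. The mice were young adult males, either labelled KO, with a floxed Irf5 (interferon regulatory factor 5) and a Cre recombinase driven by the Lyz2 promoter and therefore active in myeloid cells, or labelled WT, their wild-type littermates. BMDM of each label were sampled as Control at 0, 2 and 24 h, with palmitate, a saturated fatty acid, at 2 and 24 h, and with bacterial lipopolysaccharide (LPS) at 2 and 24 h. All cells had been differentiated in medium conditioned by L929 cells, a fibroblast line that secretes the growth factor of macrophages, and the labels do not say what vehicle the Control cells received. The labels do not state whether the 3 libraries of a group came from separate animals, so p-values measure the spread between these libraries, which may be technical.

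Library totals ran from 2848793 to 7743442 counts, so that 3 counts corresponded to 0.387 to 1.05 CPM, the count scaled to a fixed library total. Irf5 was not lower in the libraries labelled KO. At Control 0 h it stood at 305 ± 24.2 CPM in KO and 220 ± 10.4 CPM in WT (SD, n = 3 each). A gene count does not show which exons its reads came from, so the deletion was not tested. Groups are therefore named by their labels only. Lyz2, the locus that carries the Cre, was lower in KO at 7170 ± 1703 CPM against 10190 ± 46.1 CPM at Control 0 h. At Control 2 h it stood at 5307 ± 250 CPM in KO and 9569 ± 336 CPM in WT. Macrophage markers summed to between 4817 and 9008 CPM in every library. Granulocyte markers summed to 19.3 to 203 CPM and fibroblast markers to 0 to 306 CPM, and 14 of the 18 libraries above 10 CPM of fibroblast markers were labelled KO. Of the fibroblast list, Col1a1 reached 195 CPM, while Dcn and Pdgfra stayed at or below 1.01 CPM. B cell markers summed to 3.60 to 13.4 CPM, T and NK cell markers to at most 2.28 CPM, erythroid markers to at most 0.865 CPM and dendritic cell markers to at most 8.94 CPM. In bulk RNA, fewer cells of a type and less RNA per cell cannot be told apart.

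In the integrated stress response, kinases that sense amino acid shortage, unfolded protein, double-stranded RNA or haem shortage phosphorylate the initiation factor eIF2α. General translation then falls while a few messages with upstream reading frames, Atf4, Atf5 and Ddit3 among them, are translated more. ATF4 pairs with C/EBP family proteins on composite sites and induces genes of amino acid supply, tRNA charging, redox balance and feedback. Much of the control of ATF4 and ATF5 is thus exerted on the protein, and the values here are those of the transcripts alone. In macrophages the pathway is known to meet Toll-like receptor signalling, to which LPS belongs, through ATF3 and CHOP, the product of Ddit3.

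The composite C/EBP-ATF element is shown because it is the site through which ATF4 is known to act on several of these genes. Its core, TGATGNAA, was searched on both strands of RefSeq promoter windows (250 bases before to 50 bases after the transcript start, GRCm38.p6). All 10 genes had a window, and 4 of them held the core, against 4.51% of 27025 genes. The core is in capitals below, read 5′ to 3′ on the strand of the gene, so that it appears as its reverse complement where it lies in the opposite orientation.
Asns, chr6:7693215-7693242, minus strand, core beginning 23 bases before the RefSeq start: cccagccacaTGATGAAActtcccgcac
Atf3, chr1:191183416-191183463, minus strand, 110 bases before the start: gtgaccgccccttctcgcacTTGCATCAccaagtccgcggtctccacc
Chac1, chr2:119351029-119351076, plus strand, 193 bases before the start: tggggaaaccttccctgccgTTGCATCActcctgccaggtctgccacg
Trib3, chr2:152344029-152344056, minus strand, 14 bases after the start: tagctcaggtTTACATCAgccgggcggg
These 4 genes did not share a direction under LPS, as described below: Asns and Trib3 rose at 24 h, Atf3 fell at both times and Chac1 did not pass the test. The full cyclic AMP response element TGACGTCA was found in the window of 0 of the 10 genes (2.03% of all genes), the unfolded protein response core TGACGTGG in 0 (0.714%) and the interferon regulatory factor core GAAANNGAA in 0 (9.76%). The AP-1 site TGANTCA was found in 1, Ddit3 (8.97% of all genes), where it begins 242 bases before the start and stands in capitals in the stretch below.
Ddit3, chr10:127290543-127290577, plus strand: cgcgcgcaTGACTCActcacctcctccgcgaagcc
A match describes the letters of the window and does not show binding. A site outside the window would not be found, so a count of 0 does not show that a gene lacks it.

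Levels of different genes were compared only after division by exon length. In WT Control 0 h, Atf3 was the most abundant with 153 ± 6.78 CPM per kb (SD, n = 3). Atf4 followed with 37.2 ± 3.62 and Atf5 with 27.97 ± 1.39 CPM per kb. Gdf15 (13.5 ± 1.68) and Ddit3 (12.3 ± 0.912) were neighbours within their spread, followed by Sesn2 (6.93 ± 0.728), Asns (4.16 ± 0.636) and Trib3 (1.65 ± 0.127). Chac1 (0.751 ± 0.400) and Ddit4 (0.713 ± 0.195) came last, did not differ beyond their spread, and had 3 to 12 counts per library in this group. At LPS 24 h in WT the order had changed, with Atf3 at 89.9 ± 4.11, Atf4 at 74.8 ± 5.42 and Ddit3 at 33.1 ± 3.64 CPM per kb, above Atf5 at 23.4 ± 1.49 and Gdf15 at 5.35 ± 0.334.

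**Figure D1:**
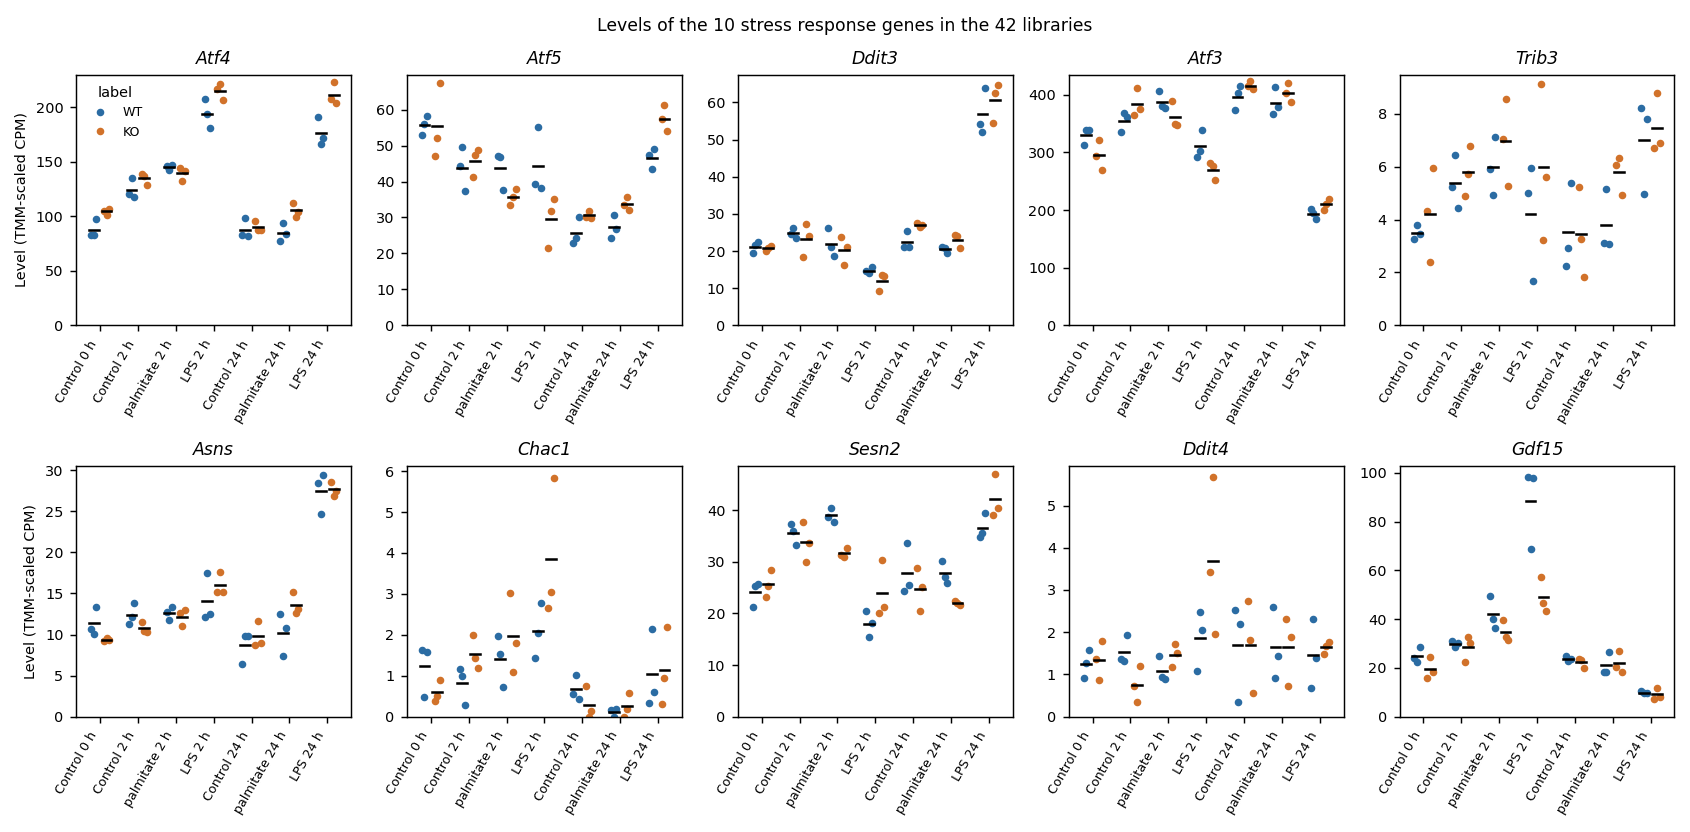
Level of each of the 10 genes (vertical axes, TMM-scaled CPM from 0) in each condition (horizontal axes). Each point is 1 of 42 libraries, blue for WT and orange for KO, and the bar is the mean of 3. Ddit3 and Asns have their highest means at LPS 24 h in both labels and Sesn2 in KO, Gdf15 at LPS 2 h, and Chac1 and Ddit4 stay below 6 CPM.

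LPS was compared with Control of the same time and label to ask how the stress response moves in an inflammatory stimulus. At 2 h in WT, 2 of the 10 genes were higher and 3 lower, against 14% and 9.1% of all genes tested. In KO at 2 h, 4 were higher and 4 lower (background 14.7% and 9.16%), and without KO LPS library 2 the 4 higher became 2, since Asns and Ddit4 both lost their calls. At 24 h, 6 were higher and 2 lower in WT (background 19.6% and 19.9%), and 6 were higher and 2 lower in KO (background 19.9% and 21%). Without WT Control library 1 or WT LPS library 3, Trib3 and Sesn2 both lost their 24 h calls in WT. The median log2 fold change over the 9 genes other than Chac1 was 0.03 in WT and -0.04 in KO at 2 h, and 0.83 in WT and 0.91 in KO at 24 h, beside -0.01 for all genes in each of the 4 comparisons. Calls required an adjusted p under 0.05 in the edgeR quasi-likelihood F test, adjusted by Benjamini-Hochberg across 11624 genes, and every adjusted p below comes from that test unless another is named. Granulocyte marker sums moved with LPS as well, from 19.3 to 32.9 CPM in WT Control to 45.4 to 65.9 CPM in WT LPS at 2 h, and from 50.8 to 61.2 CPM down to 30.6 to 33.03 CPM at 24 h. Of the granulocyte list, Ltf reached 72.2 CPM, S100a9 60.2 CPM, Ngp 54.7 CPM and S100a8 21.3 CPM. Mpo, Camp and Retnlg stayed at or below 8.35 CPM in every library. Elane, the elastase of granulocyte precursors, stayed at or below 1.56 CPM. The part of these cells in the results was not tested.

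**Figure D2:**
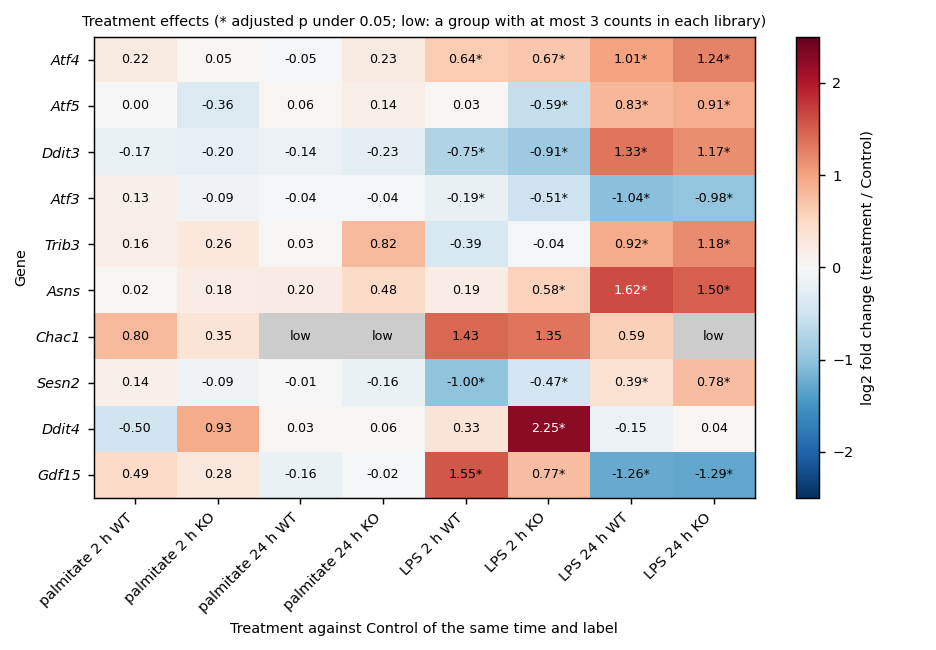
Log2 fold change of each gene (rows) for palmitate or LPS against Control of the same time and label (columns), red for higher and blue for lower, with a star where the adjusted p was under 0.05. Stars appear only in the LPS columns, and the Ddit3, Sesn2 and Gdf15 rows change colour between LPS 2 h and 24 h. Grey cells marked low involve a group with at most 3 counts in each library.

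The difference between times was tested directly, as the LPS effect at 24 h minus that at 2 h averaged over both labels, a comparison added after the values had been seen. It passed for 8 of the 10 genes, against 46.3% of all genes. The difference was 2.08 on the log2 scale for Ddit3 (SE 0.14, adjusted p = 2.07e-17), 1.32 for Sesn2 (SE 0.14, adjusted p = 1.19e-11) and -2.43 for Gdf15 (SE 0.18, adjusted p = 1.48e-16). Atf5, Trib3, Asns and Atf4 also had higher effects at 24 h, and Atf3 a lower one. Chac1 (adjusted p = 0.995, no fold given because of its low counts) and Ddit4 (-1.34, adjusted p = 0.0512) did not pass. Ddit4 passed in DESeq2 (-1.38, adjusted p = 0.043) and when any 1 of 7 libraries was left out.

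**Figure D3:**
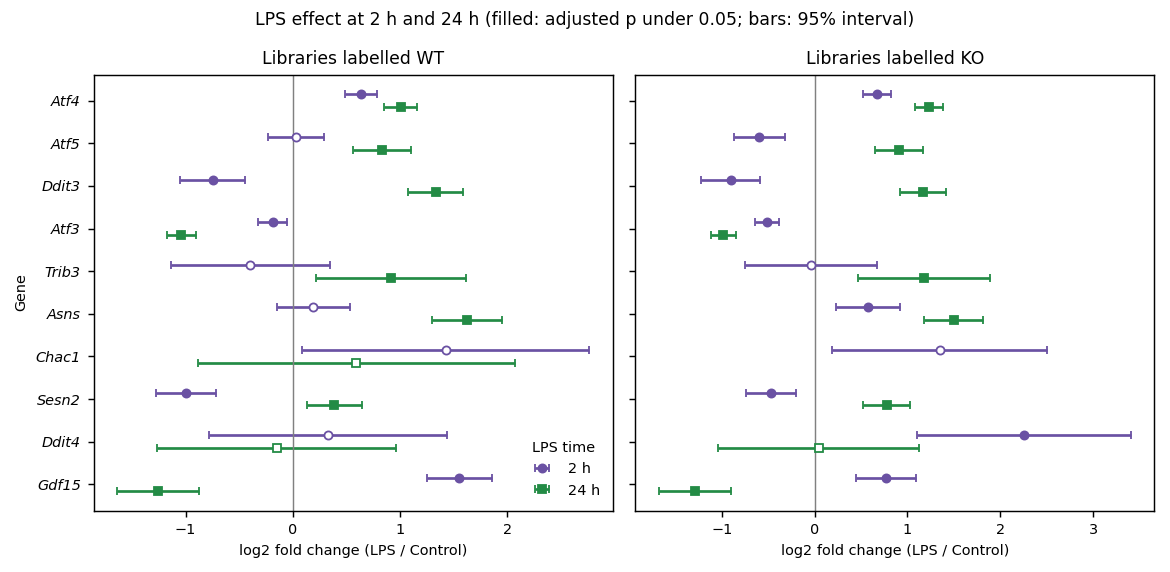
LPS effect on each gene at 2 h (violet circles) and 24 h (green squares) in WT (left) and KO (right), as log2 fold change with its 95% interval. Filled symbols passed the test. The symbols of Ddit3 and Sesn2 lie left of 0 at 2 h and right of 0 at 24 h in both panels, those of Gdf15 the reverse, and Chac1 at 24 h in KO is not drawn because its Control libraries held at most 3 counts each.

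Atf4, the transcription factor at the centre of the pathway, stood at 120, 135 and 118 CPM in WT Control 2 h and at 208, 193 and 181 CPM in WT LPS 2 h. At 24 h the WT values were 82.5, 98.2 and 82.0 CPM in Control and 191, 166 and 172 CPM with LPS. Each LPS library was above each Control library of its time. LPS minus Control on the log2 scale came to 0.64 at 2 h (SE 0.08, adjusted p = 1.45e-09) and 1.01 at 24 h (SE 0.08, adjusted p = 1.01e-15). In KO the LPS libraries read 216, 221 and 207 CPM at 2 h against 139, 137 and 128 CPM in Control, and 208, 223 and 204 CPM at 24 h against 95.3, 87.3 and 86.9 CPM. Again the groups did not overlap, with log2 fold changes of 0.67 (SE 0.08, adjusted p = 2.40e-10) and 1.24 (SE 0.08, adjusted p = 3.14e-19). In WT the LPS means were 194 ± 13.4 CPM at 2 h and 176 ± 12.8 CPM at 24 h, while the Control means were 124 ± 9.37 and 87.6 ± 9.21 CPM.

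Atf5, a relative of ATF4 under the same translational control and known for a mitochondrial stress programme, did not pass as higher at the early time in either label. WT LPS 2 h libraries read 39.4, 55.1 and 38.3 CPM and WT Control 2 h libraries 44.3, 49.6 and 37.3 CPM. The groups overlapped, with a log2 fold change of 0.03 (adjusted p = 0.913). KO LPS 2 h libraries read 21.6, 31.8 and 35.03 CPM, all below the KO Control libraries at 41.3, 47.4 and 48.7 CPM, and Atf5 fell there by 0.59 on the log2 scale (SE 0.14, adjusted p = 0.000975). The test of the difference between labels did not pass (adjusted p = 0.365). At 24 h Atf5 rose in both labels, from 23.02, 24.3 and 30.01 CPM to 47.4, 43.4 and 49.1 CPM in WT (log2 fold change 0.83, SE 0.14, adjusted p = 1.67e-06) and from 30.6 ± 1.12 to 57.5 ± 3.62 CPM in KO (0.91, SE 0.13, adjusted p = 1.18e-07). The LPS level of 46.6 ± 2.97 CPM in WT stood below the 55.7 ± 2.77 CPM of WT Control 0 h, whereas KO had 57.5 ± 3.62 CPM with LPS and 55.5 ± 10.6 CPM at Control 0 h. Atf5 also fell in untreated culture over the same time, as given below. On the opposite strand, exons of Il4i1 cover 82 bases, or 4.11%, of the Atf5 exons. Il4i1 held 626 counts over all 42 libraries. Whether counting used the strand is not stated, and the part of Il4i1 in the Atf5 counts was not tested.

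Ddit3 encodes CHOP, a transcription factor of the late, pro-apoptotic arm, and turned from lower to higher between the times. WT libraries read 24.6, 26.3 and 23.6 CPM in Control 2 h and 14.7, 13.98 and 15.6 CPM in LPS 2 h, with no overlap. It fell by 0.75 on the log2 scale (SE 0.15, adjusted p = 0.000149). At 24 h the WT Control libraries held 21.05, 25.4 and 20.98 CPM and the LPS libraries 54.3, 52.1 and 63.8 CPM, which is 1.33 higher on the log2 scale (SE 0.13, adjusted p = 3.25e-12). KO repeated both directions, from 23.3 ± 4.61 to 12.03 ± 2.53 CPM at 2 h (log2 fold change -0.91, SE 0.16, adjusted p = 1.31e-05) and from 26.96 ± 0.570 to 60.6 ± 5.34 CPM at 24 h (1.17, SE 0.13, adjusted p = 6.67e-11). Exons of Mars, the methionyl-tRNA synthetase gene on the opposite strand, cover 68 bases or 3.97% of the Ddit3 exons. A second annotated locus with the symbol Ddit3, not analysed here, shares 105 bases or 6.13%. Mars did not pass the test at 2 h (-0.01 in WT, adjusted p = 0.959) and rose at 24 h (0.81 in WT, adjusted p = 5.69e-07), and its part in the Ddit3 counts was not tested.

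Atf3, a repressor known to restrain inflammatory genes in macrophages, was the only member lower with LPS at both times. WT libraries read 373, 402 and 416 CPM in Control 24 h and 202, 195 and 184 CPM in LPS 24 h. It fell by 1.04 on the log2 scale (SE 0.07, adjusted p = 2.33e-18), and by 0.98 in KO (SE 0.07, adjusted p = 1.28e-17), from 416 ± 6.99 to 210 ± 9.76 CPM. At 2 h the KO libraries fell from 366, 412 and 376 CPM to 281, 277 and 253 CPM (log2 fold change -0.51, SE 0.07, adjusted p = 2.25e-08). In WT the change at 2 h was small, from 336, 369 and 361 CPM to 293, 302 and 339 CPM, and the groups overlapped (-0.19, SE 0.07, adjusted p = 0.035). That call was lost without WT Control library 2 (-0.16, adjusted p = 0.127) or 3 (-0.18, adjusted p = 0.0892), and without WT LPS library 1 (-0.16, adjusted p = 0.149) or 2 (-0.17, adjusted p = 0.113).

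Trib3, a pseudokinase that feeds back on ATF4 and CHOP, had low counts, between 8 and 55 in a library. At LPS 2 h it did not pass in either label (-0.39 and -0.04 on the log2 scale in WT and KO, adjusted p = 0.519 and 0.956). At 24 h the KO libraries read 5.21, 3.28 and 1.84 CPM in Control and 6.71, 8.78 and 6.88 CPM with LPS, all above (log2 fold change 1.18, SE 0.36, adjusted p = 0.00686). The call in KO was lost without KO Control library 3 (0.83, adjusted p = 0.0975). In WT the values of 2.25, 2.91 and 5.39 CPM overlapped with 8.22, 4.96 and 7.81 CPM (0.92, SE 0.36, adjusted p = 0.035). Leaving out a library ended the call for WT Control library 1 or 2 (0.74 and 0.77, adjusted p = 0.138 each) or WT LPS library 1 or 3 (0.80 and 0.83, adjusted p = 0.115 and 0.102).

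Asns, asparagine synthetase and a standard readout of ATF4 activity, had the largest 24 h rise in WT among the 10 genes. WT Control 24 h libraries read 6.46, 9.77 and 9.76 CPM and WT LPS 24 h libraries 28.4, 24.7 and 29.4 CPM, which is 1.62 higher on the log2 scale (SE 0.17, adjusted p = 9.42e-12). KO libraries rose from 8.69, 11.7 and 8.92 CPM to 28.6, 26.9 and 27.5 CPM (2.83-fold, SE 0.16 on the log2 scale, adjusted p = 5.87e-11). Both labels thus had Control and LPS libraries far apart at 24 h. At 2 h the change passed in KO, from 10.8 ± 0.702 to 15.98 ± 1.42 CPM (0.58, SE 0.18, adjusted p = 0.0111), and not in WT (0.19, adjusted p = 0.492). The KO call at 2 h was lost without KO LPS library 2 (0.49, adjusted p = 0.0824) and with all genes of at least 1 count kept (0.56, adjusted p = 0.067), and the difference between labels did not pass (adjusted p = 0.774).

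Sesn2 encodes sestrin 2, a leucine-binding inhibitor of mTORC1, and turned in the same way as Ddit3. WT libraries fell from 37.4, 36.1 and 33.2 CPM to 20.4, 15.4 and 18.2 CPM at 2 h, with no overlap (log2 fold change -0.998, SE 0.14, adjusted p = 1.68e-07). The fall in KO was from 37.8, 29.9 and 33.6 CPM to 20.1, 30.4 and 21.2 CPM, where LPS library 2 lay within the Control range (-0.47, SE 0.14, adjusted p = 0.00873). The call in KO was lost without KO Control library 1 (-0.39, adjusted p = 0.060) and without KO LPS library 1 (-0.40, adjusted p = 0.0504) or 3 (-0.38, adjusted p = 0.0766), and fitting only the 6 libraries compared gave an adjusted p of 0.0597. At 24 h Sesn2 rose in KO from 24.8 ± 4.20 to 42.2 ± 4.25 CPM (0.78, SE 0.13, adjusted p = 2.15e-06). In WT it rose from 24.4, 33.6 and 25.5 CPM to 34.9, 35.6 and 39.5 CPM (0.39, SE 0.13, adjusted p = 0.014). The WT call was lost without WT Control library 1 (0.32, adjusted p = 0.0747) or 3 (0.31, adjusted p = 0.102) or WT LPS library 3 (0.33, adjusted p = 0.0715).

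Ddit4, known as REDD1, another inhibitor of mTORC1, and Chac1, an enzyme that degrades glutathione, were close to the detection floor. Ddit4 counts were 4, 2 and 7 in KO Control 2 h and 9, 28 and 9 in KO LPS 2 h, or 0.757 ± 0.416 and 3.68 ± 1.88 CPM. The log2 fold change of 2.25 passed (SE 0.59, adjusted p = 0.00265) and no longer did so without KO LPS library 2 (1.72, adjusted p = 0.0677). In WT the counts of 7, 8 and 13 in Control and 3, 12 and 11 with LPS overlapped (0.33, adjusted p = 0.750). Chac1 counts were 6, 6 and 2 in WT Control 2 h against 4, 10 and 15 in WT LPS 2 h, and 11, 8 and 7 in KO Control 2 h against 7, 15 and 27 in KO LPS 2 h. Every LPS library had the higher CPM in both labels, yet neither comparison passed (adjusted p = 0.134 in WT and 0.0959 in KO). At 24 h Chac1 had 3, 0 and 1 counts in KO Control and 2, 5 and 15 in KO LPS, at the edge of the threshold (adjusted p = 0.0501). It was called there by DESeq2 (adjusted p = 0.0477) and without KO Control library 1 (adjusted p = 0.0147) or KO LPS library 1 (adjusted p = 0.0179). No fold is given, since the fitted value depends on the prior count when a group holds so few counts.

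Gdf15, a secreted stress cytokine of the TGF-beta superfamily, moved opposite to Ddit3. WT libraries read 31.2, 28.5 and 30.2 CPM in Control 2 h and 98.4, 68.6 and 98.1 CPM in LPS 2 h. On the log2 scale the rise was 1.55 (SE 0.15, adjusted p = 7.37e-12), and in KO it was 0.77 (SE 0.16, adjusted p = 0.00022), from 22.6, 32.6 and 30.03 CPM to 57.3, 46.6 and 43.3 CPM. Neither label had overlapping groups. At 24 h the WT values fell from 24.98, 22.8 and 23.5 CPM to 10.6, 9.60 and 9.49 CPM (-1.26, SE 0.19, adjusted p = 4.42e-07). In KO they fell from 22.3 ± 2.15 to 9.15 ± 2.46 CPM (-1.29, SE 0.20, adjusted p = 3.48e-07).

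The rest of the pathway was read from lists of genes for each of its steps. The shares of all genes called under LPS, given above for the 10 genes, are the background of these counts as well. Upstream, of 7 genes for the eIF2α kinases, eIF2α itself and its phosphatase subunits, 3 were higher and 0 lower at LPS 2 h in WT, and 4 higher and 1 lower in KO. The greatest rise was that of Ppp1r15a (GADD34), the inducible subunit that dephosphorylates eIF2α and is itself a known ATF4 target, from 30.6 to 445 CPM in WT (log2 fold change 3.86, SE 0.10, adjusted p = 1.28e-34) and from 31.1 to 395 CPM in KO (3.67). Ppp1r15b, the constitutive subunit, rose by 1.11 in WT and 1.15 in KO. At 24 h 3 of the 7 were higher and 2 lower in each label. The double-stranded RNA sensor Eif2ak2 (PKR), an interferon-induced gene, rose from 56.9 to 190 CPM in WT (1.72, SE 0.09, adjusted p = 5.04e-23) and by 1.77 in KO. The ER kinase Eif2ak3 (PERK) fell by 0.46 in WT and 0.47 in KO, and the amino acid sensor Eif2ak4 (GCN2) by 0.43 and 0.61.

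Among 6 transcription factors that pair with ATF4, 4 were higher and 2 lower at LPS 2 h in each label, and 3 higher and 2 lower at 24 h. Jdp2 rose most at 2 h (2.75 in WT, SE 0.11, adjusted p = 3.39e-27). Cebpb rose at 24 h (0.84 in WT and 1.09 in KO), while Cebpa fell at both times (-1.49 and -1.95 in WT) and so did Cebpg (-0.44 and -0.31 in WT), a frequent partner of ATF4 on composite sites.

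Charging of tRNA had the highest share of genes called higher at 24 h among the lists read. Of 12 aminoacyl-tRNA synthetases and the exporter Xpot, 0 were called at LPS 2 h in WT and 1, Yars, in KO (0.39, adjusted p = 0.0309), while at 24 h 11 of 13 were higher and 0 lower in both labels (background 19.6% higher and 19.9% lower in WT, 19.9% and 21% in KO). The median log2 fold change of the list was 0.59 in WT and 0.56 in KO at 24 h, after 0.05 and 0.07 at 2 h. Aars rose from 119 to 253 CPM in WT (1.09, SE 0.07, adjusted p = 9.68e-18) and from 123 to 259 CPM in KO (1.07), and Cars from 26.8 to 60.8 CPM in WT (1.17, SE 0.12, adjusted p = 4.68e-12). The remaining pair, named after the values had been seen, was Eprs (-0.12 in WT, adjusted p = 0.125) and Xpot (-0.07 in WT, adjusted p = 0.553). At 2 h in WT, 0 of the 13 reached an unadjusted p under 0.05 in edgeR and 0 were called by DESeq2. Of all genes tested, 3778 reached that unadjusted p in edgeR. In the test of the LPS effect at 24 h against that at 2 h, over both labels, 11 of the 13 were higher and 1, Eprs, was lower (-0.15, adjusted p = 0.0468).

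Of 8 genes tested for serine, one-carbon, proline and alanine synthesis, 4 were higher and 0 lower at LPS 24 h in WT, and 3 higher and 1 lower in KO. Mthfd2, the mitochondrial folate enzyme, rose from 20.97 to 75.2 CPM in WT (1.85, SE 0.11, adjusted p = 2.03e-19) and from 19.6 to 87.1 CPM in KO (2.16). Phgdh, the first enzyme of serine synthesis, rose from 3.07 to 8.81 CPM in WT (1.44, SE 0.31, adjusted p = 0.000136). The lower gene in KO was Mthfd1l (-0.34, adjusted p = 0.0485), and DESeq2 called 2 of the 8 in KO where edgeR called 4. Pycr1 and Cth had too few counts to be tested. Of 8 amino acid transporters tested, 3 were higher and 0 lower at 2 h in each label, and 3 higher and 1 lower at 24 h. The cystine importer Slc7a11 rose at 2 h from 212 to 692 CPM in WT (1.71, SE 0.14, adjusted p = 2.91e-14), and the cationic transporter Slc7a1 rose at 24 h from 12.9 to 29.1 CPM (1.15, SE 0.15, adjusted p = 1.18e-08). Slc1a5, a glutamine transporter, fell at 24 h (-0.76 in WT).

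Other stress programmes were read in the same way. Of 12 ER chaperones and sensors, 3 were higher and 0 lower at 2 h in each label, and 8 were higher and 2 lower at 24 h in WT and 6 and 2 in KO. Herpud1, a component of ER-associated degradation, rose at 2 h (1.27 in WT), the chaperones Calr (0.73) and Hspa5 (0.65) rose at 24 h, and the sensor Atf6 (-0.34) and Edem1 (-0.49) fell at 24 h. Of 8 mitochondrial chaperone and protease genes, 1 was higher and 1 lower at 2 h in WT, 0 and 2 in KO, and 2 higher and 0 lower at 24 h in each label, with Hspa9 at 0.35 in WT. Over all genes tested, 14% were higher at 2 h and 19.6% at 24 h in WT, so that counts of 1 and 2 of these 8 lay near the background. Of 6 further ATF4 targets tested, 3 were higher at 2 h and 1 at 24 h in each label, none lower, and the stress-induced chromatin protein Nupr1 rose at both times (from 6.003 to 87.7 CPM at 2 h, log2 fold change 3.87, SE 0.15, and from 5.25 to 56.0 CPM at 24 h, 3.34, SE 0.16, in WT).

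Several of the 10 genes also answer to other pathways, whose lists were read beside them. Of 8 p53 targets, 3 were higher and 1 lower at LPS 2 h in each label. Cdkn1a rose by 2.09 and Mdm2 by 1.45 in WT, and Sesn1, a relative of Sesn2, fell by 0.88. At 24 h 1 was higher and 2 lower in WT, and 3 and 3 in KO. Of 8 hypoxia targets, 4 were higher and 2 lower at 2 h in WT (4 and 1 in KO), and 1 was higher and 3 lower at 24 h (1 and 4 in KO). Of 6 glucocorticoid targets, 1 was higher and 2 lower at 2 h in each label, with Tsc22d3 at -1.54 and Per1 at -1.17 in WT. At 24 h 1 was higher and 3 lower in WT (1 and 4 in KO). Ddit4, often counted among such targets, was not one of these 6. Of 8 immediate early genes, 5 were higher and 1 lower at LPS 2 h in WT (6 and 2 in KO), and 2 higher and 2 lower at 24 h in each label.

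**Figure D4:**
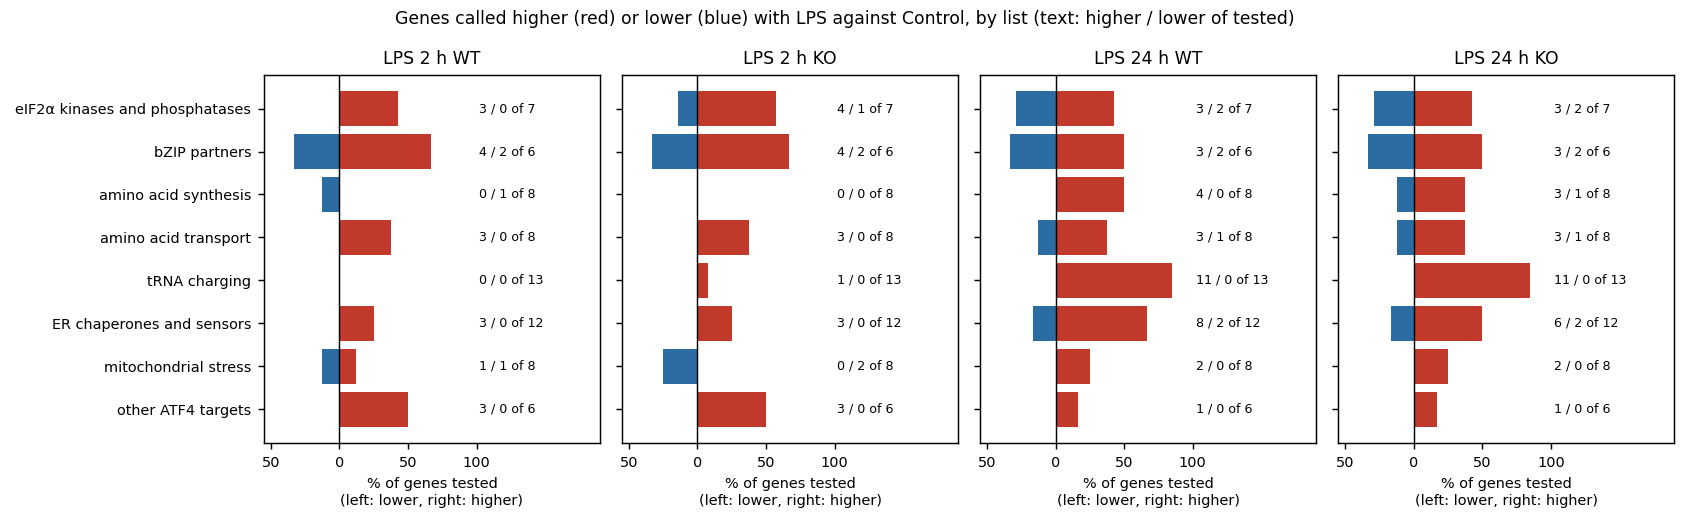
Share of each list called higher (red, to the right) or lower (blue, to the left) with LPS against Control, in percent of the genes tested, with the counts of higher and lower genes beside each bar. The tRNA charging list goes from 0 or 1 of 13 higher at 2 h to 11 of 13 at 24 h in both labels.

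Palmitate was compared with Control in the same way to ask whether lipid loading moves the pathway. None of the 10 genes passed in WT at 2 h (background 0.103% higher and 0.172% lower) or 24 h (0.671% and 0.181%), nor in KO at 2 h (0.0774% and 0.0344%) or 24 h (0.637% and 0.241%). DESeq2 also called 0 in each of the 4 comparisons. At an unadjusted p under 0.05 edgeR gave 2, 1, 1 and 3 of the 10 in that order. Over all 11624 genes it gave 866, 1049, 536 and 927. The members were Atf4 and Gdf15 at 2 h and Chac1 at 24 h in WT, and Atf5 at 2 h in KO. In KO at 24 h they were Atf4 (log2 fold change 0.23), Trib3 (0.82) and Asns (0.48). With so few genes called after adjustment, the share of 0 of 10 does not set the list apart from the background. Averaging both labels, 6 libraries against 6, gave 0 of 10 at 2 h (background 0.232% and 0.31%) and at 24 h (1.62% and 0.955%). DESeq2 called 0 at each time. At an unadjusted p under 0.05 the average gave 2 of the 10 at 2 h (Atf4 and Gdf15) and 1 at 24 h (Asns). Of all genes tested, 917 and 1406 did so. This average was added after the values had been seen.

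The intervals show how large a palmitate effect these libraries leave room for. Over both labels at 24 h the 95% interval of the log2 fold change was -0.02 to 0.20 for Atf4, -0.10 to 0.30 for Atf5, -0.38 to 0.01 for Ddit3 and -0.13 to 0.05 for Atf3. For Asns it was 0.09 to 0.59 without adjustment (log2 fold change 0.34, adjusted p = 0.186), with 8.69, 11.7 and 8.92 CPM in KO Control against 15.2, 12.7 and 13.1 CPM in KO palmitate, and 6.46, 9.77 and 9.76 against 12.5, 7.39 and 10.8 CPM in WT. Mthfd2 rose in the same average (0.34, SE 0.09, adjusted p = 0.0196). By label, the unadjusted 95% interval for Atf4 at 24 h was -0.21 to 0.11 in WT and 0.08 to 0.39 in KO. For Trib3 it was -0.73 to 0.79 in WT and 0.09 to 1.55 in KO. Neither gene passed in either label. At 2 h the nearest to the threshold was Gdf15, with 31.2, 28.5 and 30.2 CPM in WT Control against 49.3, 40.1 and 36.5 CPM in WT palmitate and 28.4 ± 5.17 against 34.7 ± 4.53 CPM in KO (0.39 over both labels, SE 0.11, adjusted p = 0.157). It passed when only the libraries compared were fitted, over both labels (0.39, adjusted p = 0.0316) and in WT (0.49, adjusted p = 0.0353), and when all genes with at least 1 count were kept (0.39, adjusted p = 0.013). Among the lists above, Fos (0.89 in WT and 0.79 in KO) and Ndrg1 (-0.41 and -0.59), an iron- and hypoxia-regulated gene, were the genes that passed in both labels at 24 h.

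Libraries labelled KO were compared with WT in each of the 7 conditions, the main contrast of the study. One gene passed at Control 0 h (1 of 10, background 12.5%) and 1 at LPS 2 h (background 0.465%). At Control 0 h the gene was Atf4, with 82.7, 83.0 and 97.6 CPM in WT and 105, 101 and 107 CPM in KO (log2 fold change 0.24, SE 0.08, adjusted p = 0.0331). The call was lost with all genes of at least 1 count kept (0.25, adjusted p = 0.0567), with only the libraries compared (0.25, adjusted p = 0.0543), without WT library 1 (0.20, adjusted p = 0.151) or 2 (0.20, adjusted p = 0.143) and without KO library 1 (0.25, adjusted p = 0.0772) or 3 (0.24, adjusted p = 0.0984). Without KO library 2, Atf3 passed as well (-0.22, adjusted p = 0.0394). Fibroblast marker sums separated the same groups, at 0.529 to 0.905 CPM in WT and 42.1 to 69.3 CPM in KO, and granulocyte sums stood at 47.4 to 54.5 CPM and 72.9 to 81.5 CPM. All 3 KO libraries were above 10 CPM of fibroblast markers, so that label and marker level cannot be told apart there.

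At LPS 2 h the gene that passed was Gdf15, lower in KO (57.3, 46.6 and 43.3 CPM) than in WT (98.4, 68.6 and 98.1 CPM), by -0.86 on the log2 scale (SE 0.15, adjusted p = 0.00121). Next came Atf5 with 21.6, 31.8 and 35.03 CPM in KO and 39.4, 55.1 and 38.3 CPM in WT. These groups did not overlap either, but Atf5 did not pass (-0.55, SE 0.15, adjusted p = 0.0736). It passed in DESeq2 (adjusted p = 0.0461), with all genes of at least 1 count (-0.56, adjusted p = 0.00588), without WT library 3 (-0.67, adjusted p = 0.0429) and without KO library 3 (-0.69, adjusted p = 0.0426). Fibroblast marker sums at LPS 2 h were 0.371 to 0.716 CPM in WT and 0.759 to 152 CPM in KO, and granulocyte sums 45.4 to 65.9 and 118 to 203 CPM.

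None of the 10 genes passed at Control 2 h (background 0.49%), palmitate 2 h (0.146%), Control 24 h (0.12%), palmitate 24 h (0.0688%) or LPS 24 h (0.146%). At an unadjusted p under 0.05 edgeR gave 0, 2, 0, 4 and 2 of them in that order. Of all genes tested it gave 1172, 1032, 587, 891 and 1056. The members were Atf5 and Sesn2 at palmitate 2 h, and Atf4, Atf5, Asns and Sesn2 at palmitate 24 h. At LPS 24 h they were Atf4 and Atf5. DESeq2 called 1 of the 10, Atf4 at LPS 24 h (0.26, adjusted p = 0.0483). Without WT palmitate 24 h library 2, Atf4 passed at palmitate 24 h (0.39, adjusted p = 0.0343). Over the 7 conditions, the widest 95% interval bounds of the log2 fold change were -0.20 and 0.47 for Atf4, -0.35 and 0.26 for Atf3, -0.60 and 0.53 for Ddit3 and -0.60 and 0.76 for Sesn2, whereas for Ddit4 they reached -2.23 and 1.98.

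**Figure D5:**
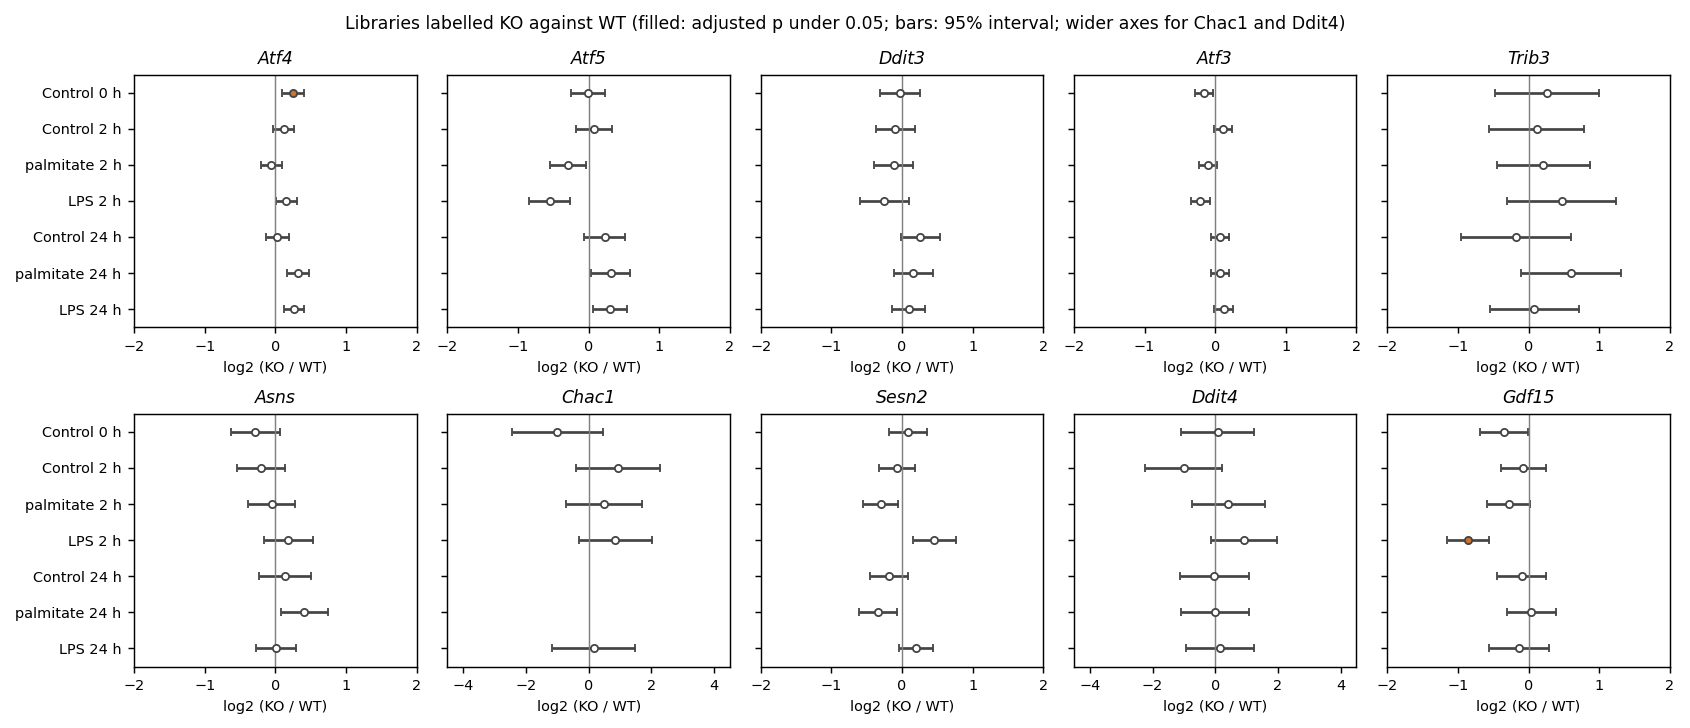
Log2 fold change of KO over WT (horizontal axes) for each gene in each condition, with 95% intervals, filled where the adjusted p was under 0.05. Atf4 at Control 0 h and Gdf15 at LPS 2 h are the filled points. The axes of Chac1 and Ddit4 are wider, and Chac1 is not drawn where a group held at most 3 counts in each library.

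Whether a treatment effect differed between labels was tested as an interaction. For none of the 10 genes did it pass, for palmitate at 2 h (background 0%) or 24 h (0%), or for LPS at 2 h (0%) or 24 h (0.0086%). At an unadjusted p under 0.05 edgeR gave 1, 1, 5 and 2 of the 10 in that order, and DESeq2 called 0 of them. Over all 11624 genes the first 3 of these tests had 486, 411 and 810 genes at an unadjusted p under 0.05 and 0, 0 and 1 called by DESeq2. The largest at LPS 2 h with an unadjusted p under 0.05 was Ddit4 (1.93, adjusted p = 0.630), and that of Gdf15 was -0.79 (adjusted p = 0.342). The Gdf15 interaction passed when all genes with at least 1 count were kept (-0.80, adjusted p = 0.0177).

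Untreated cells also changed with time. At Control 2 h against 0 h, over both labels, 4 of the 10 were higher and 1 lower (background 9.35% and 7.36%). Atf4 rose from 96.1 to 129 CPM (log2 fold change 0.43, SE 0.05, adjusted p = 1.46e-08), Sesn2 from 24.9 to 34.7 CPM (0.47, SE 0.09, adjusted p = 0.000103), Gdf15 from 22.3 to 29.2 CPM (0.39, SE 0.12, adjusted p = 0.0165) and Atf3 from 313 to 370 CPM (0.24, SE 0.05, adjusted p = 7.82e-05). Atf5 fell (-0.32, SE 0.09, adjusted p = 0.00861). The Gdf15 call was lost without KO Control 0 h library 1 (0.33, adjusted p = 0.0659) or KO Control 2 h library 2 (0.34, adjusted p = 0.0624), and that of Atf5 without KO Control 0 h library 3 (-0.23, adjusted p = 0.0865) or WT Control 2 h library 3 (-0.26, adjusted p = 0.0521). In the same comparison 8 of 8 immediate early genes were higher, among them Junb (1.28) and Egr1 (1.75), as were 5 of the 6 partners of ATF4, among them Jdp2 (1.21) and Cebpb (0.91). Their part in the results was not tested. The 2 h Control group is the baseline of the 2 h treatments, so the effects given above are relative to a raised Atf4, Sesn2, Gdf15 and Atf3 and a lowered Atf5.

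At Control 24 h against 0 h, 1 of the 10 was higher and 1 lower (background 7.9% and 8.62%). Atf5 fell from 52.8, 56.05 and 58.3 CPM to 23.02, 24.3 and 30.01 CPM in WT and from 47.1, 52.1 and 67.5 CPM to 30.05, 31.9 and 29.9 CPM in KO, with no overlap in either label (-0.98 over both, SE 0.10, adjusted p = 2.69e-11). Atf3 rose from 313 to 407 CPM (0.38, SE 0.05, adjusted p = 1.37e-08). Atf4 did not pass (-0.11, adjusted p = 0.189). The change with time differed between labels for none of the 10 genes, at 2 h (background 4.77%) or 24 h (1.83%). At an unadjusted p under 0.05 edgeR gave 1 at each time, Atf3, against 2109 of all genes at 2 h and 1616 at 24 h. DESeq2 called Atf3 at 2 h (0.27, adjusted p = 0.048) and 0 at 24 h, and edgeR did so without KO Control 0 h library 2 (0.34, adjusted p = 0.0251).

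Over the 14 group means of log2 CPM, which share their libraries' labels, times and treatments, Atf4 correlated with Asns at r = 0.769 and with Atf5 at r = 0.310. Ddit3 and Gdf15 had the most negative coefficient among pairs of the 10 genes (r = -0.864). Within groups, over the 42 libraries centred on their group means, the same 3 coefficients were 0.0691, 0.145 and 0.266. Among genes averaging 1 CPM or more, those most like Atf4 over the 14 group means were Slc15a3 (r = 0.957), Slc7a1 (0.953) and Lrrc8c (0.951), and those most like Atf5 were Nudt9 (0.861), Rpl36al (0.853) and Rpn1 (0.851).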

How the data were processed

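RNA of mouse BMDM (14 groups, 42 libraries) was depleted of ribosomal RNA, and strand-specific libraries of it were read from both ends. The authors aligned the reads to mm10 with STAR 2.7.3a and deposited gene counts, which they had not normalised. The submitters' processing notes also name fastp 0.19.11 and mm9. The annotation release and the strand setting of the counting are not given in the sources used here. Columns name a group and no replicate, so library numbers 1 to 3 only name a library.

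Counts were fitted in R 4.3.3 with edgeR 4.0.16 (TMM scaling, filterByExpr by group, 1 quasi-likelihood fit of the 14 group means to all 42 libraries). Each contrast was given an F test, with p-values adjusted by Benjamini-Hochberg across the 11624 genes kept. The SE is the log2 fold change divided by the square root of F, and the 95% intervals rest on this SE and a normal distribution. Levels and the marker sums printed are TMM-scaled CPM. The threshold that set libraries apart by their fibroblast markers was applied to sums in CPM of the library total. Of 37310 identifiers, 32620 were matched to a symbol. Exon lengths and overlaps were taken from GENCODE M21 (GRCm38). A count of 3 per library was taken as the detection floor, which covers counting error only. The fitting functions were tested on simulated data with 200 genes changed. Of these, 79% of the 2-fold and 95% of the 4-fold changes were called, and 7.45% of the calls were false. Smaller changes were not simulated.

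The members and lists were chosen with earlier results of these data known. Named genes were the 10 members, at most 2 genes per direction, list and comparison with the smallest adjusted p among those called, the 3 genes most like Atf4 and Atf5, and Irf5 and Lyz2. Alternatives were RLE size factors, all genes with at least 1 count, only the libraries compared, and leaving out each library. DESeq2 1.42.0, the test of the study, was another. For KO against WT so was a call threshold of the study, a log2 fold change beyond 1 in size at a p under 0.05 before adjustment. It was applied here to the edgeR fold change and p, whereas the study took its p from a Wald test. Added after the values had been seen were the contrast of the LPS effects at 24 and 2 h, palmitate over both labels, and a fit without the 18 libraries above 10 CPM of fibroblast markers. Protein levels, translation and the other experiments of the study were not analysed here.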

Additional observations from a re-analysis of the deposited data

Results flagged for a closer look

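The LPS effect at 24 h differed from that at 2 h, tested as a contrast over both labels that was added after the values had been seen, for 8 of the 10 genes (edgeR, p adjusted by Benjamini-Hochberg). Of all genes tested, 46.3% passed the same contrast. The difference, 24 h minus 2 h on the log2 scale, was 2.08 for Ddit3 (adjusted p = 2.07e-17), 1.32 for Sesn2 (adjusted p = 1.19e-11), 1.27 for Trib3 (adjusted p = 0.00355), 1.18 for Asns (adjusted p = 8.74e-08), 1.15 for Atf5 (adjusted p = 6.02e-10) and 0.47 for Atf4 (adjusted p = 1.28e-06). It was -2.43 for Gdf15 (adjusted p = 1.48e-16) and -0.66 for Atf3 (adjusted p = 8.53e-12). For Ddit3, Sesn2 and Gdf15 the effects at the 2 times had opposite signs and each passed the test in both labels, whereas for Atf4 and Atf3 the sign was shared and the size differed. Each time has its own Control group, and the Control levels of Atf4, Sesn2, Gdf15 and Atf3 were themselves raised at 2 h. Control Atf5 was lower than at 0 h at both times (-0.32 and -0.98 on the log2 scale over both labels). Control Atf3 was also higher at 24 h (0.38). In WT, Atf5 averaged 44.2 CPM at LPS 2 h and 46.6 CPM at LPS 24 h, against 43.8 and 25.8 CPM in Control. In KO it averaged 29.5 and 57.5 CPM with LPS, against 45.8 and 30.6 CPM in Control. Groups of 3 libraries were too small to be searched for outlying libraries.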

How the results depend on the processing

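No paired analysis was possible because the columns of the count table carry no replicate numbers. RLE size factors changed none of the calls of the 10 genes and moved the median of all genes by at most 0.00833 on the log2 scale. With LPS and with Control time, the number of the 10 genes called in either direction held within 1.5 times under every alternative run, but by direction the 4 higher at LPS 2 h in KO became 2 without KO LPS library 2, and the 1 lower at Control 2 h against 0 h became 0 without KO Control 0 h library 3 or WT Control 2 h library 3. The count at Control 0 h between labels (1) was 0 with all genes of at least 1 count, with only the libraries compared and with the threshold of the study, and 0 to 2 when a library was left out. At LPS 2 h between labels (1) it was 2 with all genes of at least 1 count, 2 in DESeq2 and 0 with the threshold of the study, and 1 to 2 when a library was left out. Counts of 0 became 1 for palmitate 2 h in WT with only the libraries compared, for palmitate 2 h over both labels with only the libraries compared and with all genes of at least 1 count, for KO against WT at LPS 24 h in DESeq2, for the LPS 2 h interaction with all genes of at least 1 count, and for the interaction with Control 2 h in DESeq2. When a library was left out, counts of 0 ranged from 0 to 1 for KO against WT at palmitate 24 h and for the interaction with Control 2 h. Which genes these were stands beside the results. Without the 18 libraries above 10 CPM of fibroblast markers, 11 groups remained, and of 15 values that could be refitted 13 kept their call. Atf3 at LPS 2 h (-0.17, adjusted p = 0.139) and Sesn2 at LPS 24 h (0.32, adjusted p = 0.101) in WT lost theirs. The groups lost were KO Control at 0, 2 and 24 h. The values refitted were thus LPS effects in WT and KO against WT at LPS 2 h. No LPS effect in KO, no change of Control with time and no Control 0 h difference could be refitted. Of 47 values of the 10 genes refitted under the alternatives, 0 turned direction. These were the values called in the main fit and Atf5 for KO against WT at LPS 2 h. The direction of the other values, among them those near 0, was not followed. Single genes of the other lists were not refitted. Ddit4 at LPS 2 h in KO had too few counts to be tested when only the libraries compared were fitted. The cause of these changes was not tested. Depth limits Chac1, Ddit4 and Trib3 most.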
